A study of Mus musculus with 8 samples.

Results

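Cluster 1 was a sorted population of mouse bone marrow stromal cells, gated as CD31-, CD45-, Ter119-, CD24-, Sca-1+ and CD39+. It was profiled by RNA-seq as 1 of 7 sorted clusters, beside a library of input cells that was left out of every comparison here. All 7 clusters came from wild type mice, labelled as C57BL/6J and as 6 weeks old (C57BL/6JJcl in the study's methods), with 1 library for each cluster. By the sort plots of the study, cluster 2 was gated as Ly-6C-, CD24- and CD39-, cluster 3 as Ly-6C+, CD24+ and negative for CD39 and CD54, and cluster 4 as Ly-6C-, CD54+ and CD24-. Cluster 5 was gated as CD54+, CD121b- and negative for CD24 and Ly-6C, cluster 6 as CD24+, Sca-1- and CD39-, and cluster 7 as CD54-, Sca-1+ and negative for CD24 and Ly-6C. How many mice each sort pooled is not given in the sources used here, and with 1 library per cluster no difference had a replicate check.

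The genes described are the 13072 with 50 or more counts in cluster 1, of 49315 genes in the files. Levels are in RPKM, counts scaled to exon length and to the library total, calculated after 3 loci were removed, which were Rn18s-rs5, Lars2 and mmu-mir-689-2. Differences are in log2(RPKM + 1), cluster 1 minus the median, the highest or the lowest of the other 6 clusters, and a gene was called where RPKM + 1 differed by more than 2-fold. Adding 1 makes the difference of a low gene smaller than its ratio of RPKM. Around the count minimum, 436 genes with 50 to 59 counts had a median of 0.736 RPKM in cluster 1, and 543 genes with 40 to 49 counts had a median of 0.719 RPKM. Intervals given after a ratio of RPKM are 95% exact binomial intervals of the counts, and they cover counting error only.

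Bone marrow stroma holds fibroblast-like cells that make connective tissue and cells committed to bone, cartilage and fat. Sca-1, the product of Ly6a, together with the PDGF receptor Pdgfra marks a primitive stromal fraction, and CD39, the product of Entpd1, breaks down extracellular ATP and ADP. Fibroblasts of the vessel adventitia are known for secreted matrix glycoproteins, chemokines and basement membrane proteins, and bone-forming cells for osteocalcin, osteopontin and alkaline phosphatase.

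The libraries differed in depth and in what filled them. Cluster 1 held 24205863 counts, and the other 6 held between 12833648 in cluster 5 and 33238133 in cluster 7. The 3 removed loci took 1.91% of cluster 1, 34.8% of cluster 5, 10.4% of cluster 2 and 1.58% or less of each of the others. Haemoglobin genes took 7.996% of what remained in cluster 5 and 1.12% in cluster 1. Clusters 2 and 5 therefore stood apart from the rest, and counts for the main gene groups are also given without both, an alternative chosen after the data were seen. Cluster 6 was the lowest of the other 6 for 326 of the 403 genes that were higher in cluster 1 than the median. For these genes cluster 4 (125) or cluster 3 (123) was most often the highest. The same counts over all genes were not made. Cluster 6 was low in general, with a median difference of -0.21 from the other clusters over its own genes with 50 or more counts. Of those genes, 189 were more than 2-fold below every other cluster. How far the 326 follow from this was not tested.

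Of the genes used here as markers of cluster 1, Spink5 and Abca8a were at their highest there and Ly6a and Entpd1 were second. Ly6a read 601 RPKM in cluster 1 and 87.4, 946, 435, 134, 5.05 and 226 RPKM in clusters 2 to 7 in order. Entpd1 read 8.72 RPKM in cluster 1 and 3.46, 2.30, 7.41, 7.43, 4.58 and 13.9 RPKM in clusters 2 to 7. Ly6a was thus above 5 clusters and below cluster 3, and Entpd1 was above 5 clusters and below cluster 7. Both genes encode proteins of the cluster 1 gate, so their levels describe the sort. Pdgfra was highest in cluster 1, at 28.6 RPKM against 4.88 to 26.5 RPKM, though not with TMM scaling. Cd24a, whose product was gated out of cluster 1, ranked 5 of 7 at 56.7 RPKM. It read 50.7 RPKM in cluster 3, which was gated as CD24+. With TMM scaling cluster 1 was the lowest of the 7, at -0.026 from the lowest of the others. The Cd24a RNA was thus at a similar level in these 2 clusters although their gates differed. Of the other proteins gated out, Ptprc, which encodes CD45, read 2.97 RPKM and Pecam1, which encodes CD31, 2.77 RPKM.

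In a comparison with the median of the other 6, 403 genes (3.08% of 13072) were higher in cluster 1 and 164 genes (1.25%) were lower. These shares are the background of the counts given for each gene list. The lists and their members were chosen with earlier results of these data known, so their counts describe cluster 1 and test nothing. The median difference over all 13072 genes was 0.18. The count minimum was set in cluster 1 itself, so a gene can be left out because it is low there, and the split of higher and lower genes follows in part from it. With 50 or more counts in any of the 7 libraries instead, 411 genes were higher and 232 lower, so that higher genes made up 63.9% of the calls in place of 71.1%, and the median difference was 0.15. Of the members of the gene lists, 71 were under the minimum, of which 7 were lower than the median past 2-fold and none higher. With TMM or DESeq2 scaling that median was 0.04 and 0.02, and higher genes made up 58.7% and 55.7% of the calls. Cluster 1 was the highest of the 7 libraries for 19.8% of the 13072 genes and the lowest for 3.58%, and for 11.7% and 6.59% with TMM scaling. In a comparison with the highest of the other 6, 27 genes (0.207%) were higher in cluster 1, of which 4 were predicted genes or an immunoglobulin segment. In a comparison with the lowest of the other 6, 17 genes (0.13%) were lower. Without clusters 2 and 5 the counts were 435 higher and 175 lower than the median, 41 above the highest and 22 below the lowest. These hold the 27 and 17 genes by construction, since leaving libraries out cannot remove a gene that is beyond all of them. With TMM scaling 16 of the 27 and 16 of the 17 remained, and with DESeq2 scaling 18 and 17. Each of the other 6 clusters, treated the same way over its own genes with 50 or more counts, had between 24 (cluster 4) and 153 (cluster 2) genes above all others and between 1 (cluster 4) and 189 (cluster 6) below all others.

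**Figure D1:**
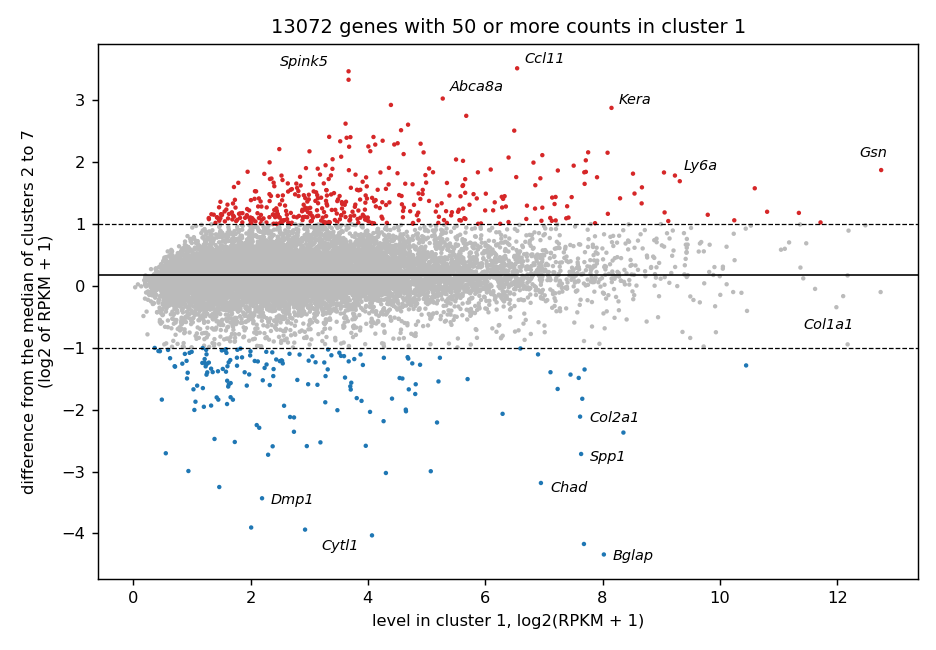
Each point is 1 of the 13072 genes with 50 or more counts in cluster 1, with its level in cluster 1 as log2(RPKM + 1) on the horizontal axis and its difference from the median of the other 6 clusters in log2(RPKM + 1) on the vertical axis. The dashed lines mark 2-fold, with 403 genes above and 164 below them, and the bulk of the points lies near the median of 0.18.

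Spink5, which encodes a secreted inhibitor of serine proteases known from the epidermis, stood furthest above every other cluster. It lies at chr18:43963235-44022501 on the plus strand (GRCm38) and had 1333 counts in cluster 1. Spink5 read 11.7 RPKM in cluster 1 and 0.0460, 0.125, 0.221, 0.275, 0.0335 and 0.177 RPKM in clusters 2 to 7. The 6 other clusters were all under 0.3 RPKM and did not overlap with cluster 1. The ratio to the next highest, cluster 5, was 42.7 (23.8 to 85.7), and cluster 5 rested on 11 counts. Of 18 Spink and kallikrein genes, Spink5 and Spink2 were the 2 with 50 or more counts. Both were higher than the median (1 of them without clusters 2 and 5), but Spink5 is itself a marker of cluster 1, so its call adds nothing. Spink2 read 11.2 RPKM in cluster 1 and 10.04 RPKM in cluster 3, so it did not set cluster 1 apart from that library. The kallikreins Klk5, Klk11 and Klk14 were listed at 0 counts in cluster 1.

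Adcy8, an adenylate cyclase that is stimulated by calcium and calmodulin, read 2.86 RPKM in cluster 1 and 0.214 RPKM or less elsewhere. The ratio to the next highest was 13.4 (6.97 to 29.5). Adamts8, a secreted metalloprotease, read 20.003 RPKM in cluster 1 and 1.52, 1.40, 4.22, 0.337, 2.04 and 6.85 RPKM in clusters 2 to 7. Cluster 7 came closest, at a ratio of 2.92 (2.71 to 3.14). Its relative Adamts19 read 4.01 RPKM in cluster 1 against 1.08 RPKM or less. Hmcn2, a large extracellular matrix protein of the hemicentin family, read 24.7 RPKM in cluster 1 and 0.805, 3.50, 8.75, 4.34, 0.0458 and 2.97 RPKM in clusters 2 to 7. For Hmcn2 the order after cluster 1 was led by cluster 4, at a ratio of 2.82 (2.73 to 2.93).

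Among transcription factors more than 2-fold above every other cluster, Foxf2 read 4.30 RPKM in cluster 1 and 0.983 RPKM or less elsewhere, a ratio of 4.37 (3.37 to 5.72). Meox1, a homeobox factor of the somite, read 21.7 RPKM in cluster 1 and 2.81, 1.65, 8.19, 4.56, 0.216 and 8.41 RPKM in clusters 2 to 7. Atf5 read 32.0 RPKM in cluster 1 and 12.5 RPKM or less elsewhere, with a ratio of 2.55 (2.21 to 2.96). All 3 remained more than 2-fold above every other cluster with TMM and with DESeq2 scaling. Isl1, a LIM homeobox factor, read 9.52 RPKM in cluster 1 and at most 3.85 RPKM in cluster 4, and Isl1 was under 2-fold with both of those scalings. The other genes that stayed above 2-fold with both scalings were Camk2n1 at 7.43 RPKM, Higd1b at 4.03 RPKM and Lypd8 at 2.46 RPKM, besides Spink5, Adcy8, Adamts8, Adamts19, Hmcn2, Hoxd13 and Kera. Lypd8 rested on 75 counts and Higd1b on 81 counts in cluster 1. Egfl6 and Plcb4 were above 2-fold with DESeq2 scaling but not with TMM, and Pcdh7, Cst6, Adam33, Col15a1, Myh11, Col5a3 and Hoxa13 with neither.

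**Figure D2:**
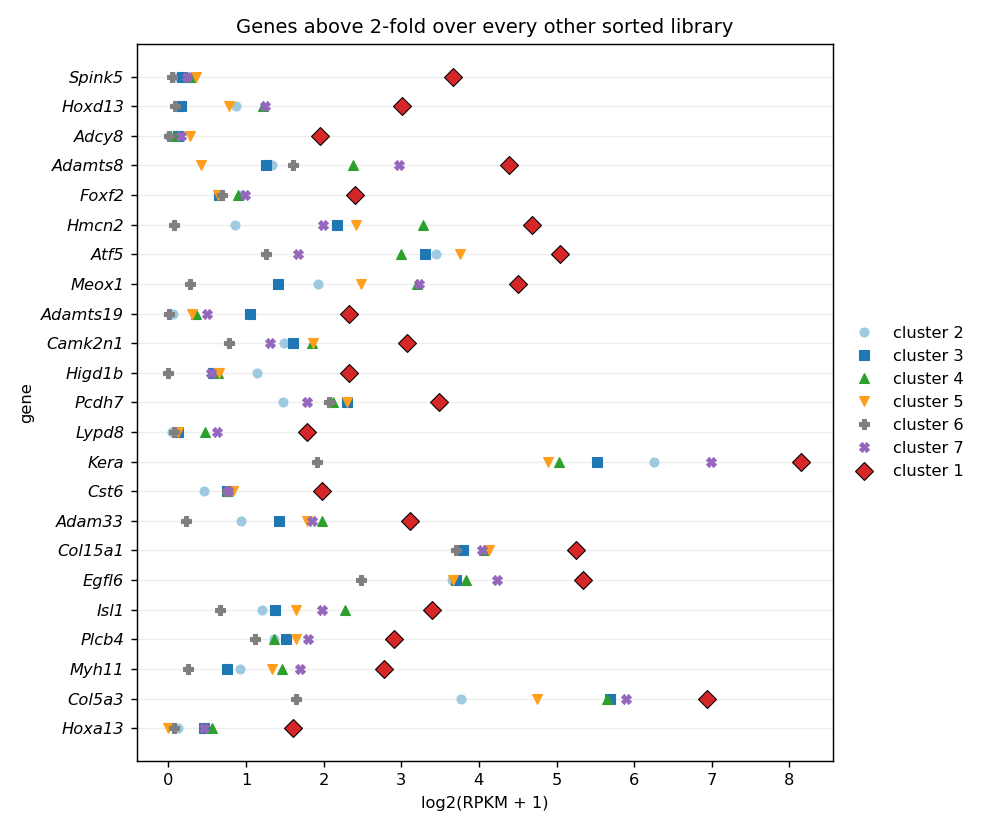
Levels as log2(RPKM + 1) on the horizontal axis are shown for the 23 named genes that were more than 2-fold above every other sorted cluster, 1 point for each library. The cluster 1 point (red diamond) is the rightmost for every gene shown, from 42.7 times the next library for Spink5 to 2.09 times for Col5a3.

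Hoxd13, a homeobox factor of the most distal limb, lies at chr2:74668310-74671599 on the plus strand (GRCm38). Hoxd13 read 7.02 RPKM in cluster 1 and 0.833, 0.121, 1.32, 0.722, 0.0645 and 1.36 RPKM in clusters 2 to 7. Cluster 1 was 5.16 (4.18 to 6.42) times cluster 7, the next highest. Because of this difference 24 genes of limb patterning were examined, chosen after their values were seen, so their counts support nothing. Of the 24, 19 had 50 or more counts in cluster 1, 7 were higher than the median and 1 was lower, with a median difference of 0.56 beside 0.18 over all genes. Hoxa13, the paralog of Hoxd13 in the HoxA group, read 2.04 RPKM in cluster 1 and 0.0890, 0.379, 0.477, 0, 0.0518 and 0.378 RPKM in clusters 2 to 7. Tbx5, a T-box factor known for the forelimb, read 1.82 RPKM in cluster 1 and 0.591 RPKM or less elsewhere. Tbx4, its counterpart of the hindlimb, read 4.89 RPKM in cluster 1 and 5.59 RPKM in cluster 7. The other higher genes were Tbx3 at 4.29 RPKM, En1 at 1.44 RPKM, Msx1 at 28.7 RPKM and Isl1. Pitx1, a homeobox factor of the hindlimb, was the lower one, at 1.44 RPKM in cluster 1 and 4.94, 3.30, 5.92, 2.34, 5.11 and 4.60 RPKM in clusters 2 to 7. Other Hox genes were not all set apart in the same way, since Hoxa10 at 5.602 RPKM ranked 4 of 7 and Hoxc10 at 12.1 RPKM ranked 3 of 7. Hoxd11 at 0.580 RPKM on 58 counts and Hoxc11 at 1.5004 RPKM were also highest in cluster 1, without being called, and Hoxd9 was under the count minimum with 43 counts. By the study's methods the cells came from crushed femur, tibia and ilium.

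**Figure D3:**
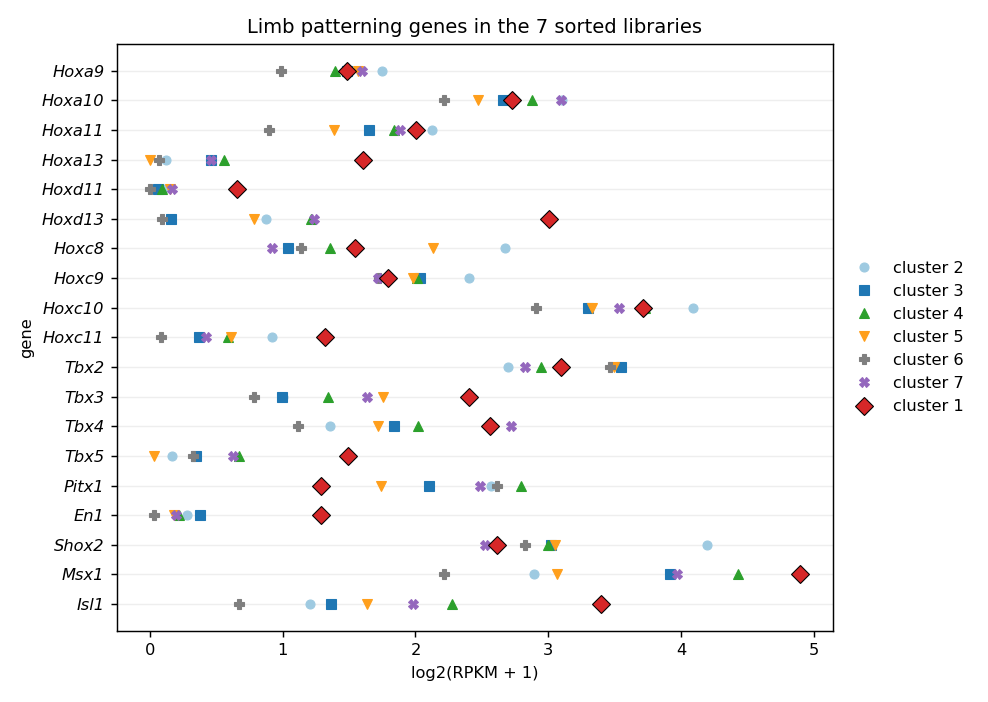
Levels of the 19 limb patterning genes with 50 or more counts in cluster 1 are shown as log2(RPKM + 1) on the horizontal axis, 1 point for each of the 7 libraries. Cluster 1 (red diamond) lies to the right of all others for Hoxd13, Hoxa13, Tbx3, Tbx5, En1, Msx1, Isl1, Hoxd11 and Hoxc11 and to the left of all others for Pitx1.

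The stretch before the start site is printed for 2 genes that were high in cluster 1, Hoxd13 and Kera, and for 2 that were low, Bglap and Spp1, so that the regulatory sequence can be read beside the levels. Each is the 250 bases before the RefSeq start on GRCm38.p6, 5′ to 3′ along the strand of the gene. Capitals mark matches on either strand to any of 4 motifs, the core of the TATA box with the letters TATAAA, the CCAAT box, the GC box with the letters GGGCGG and the RUNX core with the letters ACCACA. The AP-1 site with the letters TGANTCA was searched as well and had no match in these windows. The windows are chr2:74667975-74668224 for Hoxd13, chr10:97606955-97607204 for Kera, chr3:88384467-88384716 on the minus strand for Bglap and chr5:104434861-104435110 for Spp1.
Hoxd13: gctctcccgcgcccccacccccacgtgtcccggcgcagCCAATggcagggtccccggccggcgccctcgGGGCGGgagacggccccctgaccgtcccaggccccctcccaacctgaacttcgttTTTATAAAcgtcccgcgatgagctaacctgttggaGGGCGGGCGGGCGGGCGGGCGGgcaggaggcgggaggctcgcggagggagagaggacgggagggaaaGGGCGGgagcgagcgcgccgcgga
Kera: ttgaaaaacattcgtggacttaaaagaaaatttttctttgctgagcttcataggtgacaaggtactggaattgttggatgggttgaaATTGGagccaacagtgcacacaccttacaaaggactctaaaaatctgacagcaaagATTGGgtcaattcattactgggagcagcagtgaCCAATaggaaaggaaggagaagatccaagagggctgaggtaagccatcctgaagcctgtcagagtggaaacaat
Bglap: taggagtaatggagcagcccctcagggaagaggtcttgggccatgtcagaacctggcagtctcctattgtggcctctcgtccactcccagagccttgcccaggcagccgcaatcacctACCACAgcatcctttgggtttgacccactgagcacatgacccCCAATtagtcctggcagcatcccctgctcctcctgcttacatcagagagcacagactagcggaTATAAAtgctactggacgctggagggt
Spp1: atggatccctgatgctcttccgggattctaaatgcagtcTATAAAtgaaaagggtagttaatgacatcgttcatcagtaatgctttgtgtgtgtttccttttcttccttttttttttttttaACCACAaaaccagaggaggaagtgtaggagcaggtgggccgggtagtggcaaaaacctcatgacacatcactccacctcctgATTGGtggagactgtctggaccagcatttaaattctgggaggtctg

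Hoxd13 held 7 matches to GGGCGG, some of which overlapped, 1 to CCAAT and 2 overlapping matches to TATAAA on opposite strands. Kera held 3 matches to CCAAT and none to the other motifs. Bglap and Spp1 each held 1 match to TATAAA, 1 to CCAAT and 1 to ACCACA. Among 32851 RefSeq promoters of the same length, 12.4% held TATAAA, 33.8% CCAAT, 32.7% GGGCGG, 14.0% ACCACA and 6.75% TGANTCA. The matches describe the letters of these windows and are not measured binding. Of the 403 higher genes 259, and of the 164 lower genes 119, had a RefSeq promoter sequence.

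Kera encodes keratocan, a small leucine-rich proteoglycan known from cornea and tendon, and lies at chr10:97607205-97613688 on the plus strand. It read 284 RPKM in cluster 1 and 75.3, 44.9, 31.7, 28.8, 2.78 and 127 RPKM in clusters 2 to 7. Cluster 1 was 2.24 (2.18 to 2.30) times cluster 7, the next highest. Of 10 small leucine-rich proteoglycans, 2 were higher than the median (1 without clusters 2 and 5), Kera and Podn, and 1 was lower, Omd at 35.8 RPKM. Decorin, the product of Dcn and the most abundant of them in cluster 1, read 4631 RPKM and ranked 4 of 7. Of 8 tendon genes, 2 were higher (3 without clusters 2 and 5) and 1 was lower. Tnmd, which encodes tenomodulin, was highest in cluster 1 at 233 RPKM against 209 RPKM in cluster 4, though not with TMM scaling, while Cilp2 was the lowest of the 7 at 35.2 RPKM. Tnmd was under 2-fold with DESeq2 scaling.

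Genes of adventitial fibroblasts were mostly above the median of the other 6, but by summed level cluster 1 did not stand apart from clusters 3, 4 and 7. The list summed to 14927 RPKM in cluster 1 and 3166, 14008, 16179, 5034, 2593 and 14761 RPKM in clusters 2 to 7. Gsn and Dcn were its most abundant members in cluster 1. For this sum the median of the other 6 fell between high and low libraries. Of 21 such genes, all with 50 or more counts, 14 were higher and none lower, beside 3.08% and 1.25% of all genes, with a median difference of 1.49. The counts were 14 and none with TMM and DESeq2 scaling, and 11 and none without clusters 2 and 5. Cd34, a sialomucin of vascular and stromal progenitors, read 125 RPKM in cluster 1 and 8.59, 78.7, 57.6, 14.8, 1.39 and 52.5 RPKM in clusters 2 to 7. Mfap5, a microfibril glycoprotein, read 271 RPKM in cluster 1 and at most 185 RPKM, in cluster 3. Pi16, a marker of adventitial fibroblasts, read 30.6 RPKM in cluster 1 and 2.66, 10.005, 23.1, 6.57, 1.71 and 11.0 RPKM in clusters 2 to 7. Cluster 1 was highest for 6 of the 21 (5 with TMM scaling), beside 19.8% of all genes (11.7% with TMM scaling), and cluster 3 exceeded it for others, among them Cd55 at 113 against 29.9 RPKM, Dpp4 at 21.3 against 7.84 RPKM and Wnt2 at 23.5 against 8.09 RPKM. Gsn, which encodes gelsolin and was the most abundant gene of cluster 1 in RPKM, read 6886 RPKM there and 7519.5 RPKM in cluster 4. In bulk libraries such as these, fewer cells of a type and less RNA per cell cannot be told apart.

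Basement membrane genes were higher too, with 11 of 22 higher than the median, beside 3.08% of all genes, none lower and a median difference of 1.02. Cluster 1 was the highest of the 7 libraries for 12 of the 22 (11 with TMM scaling), beside 19.8% of all genes (11.7% with TMM scaling). Those 11 were 10 with TMM and with DESeq2 scaling and 9 without clusters 2 and 5. Col4a1, the abundant chain of type IV collagen, read 150 RPKM in cluster 1 and 13.9, 38.1, 99.3, 43.0, 4.17 and 91.5 RPKM in clusters 2 to 7. Col4a5 read 16.5 RPKM in cluster 1 and at most 9.12 RPKM in cluster 4, and its neighbour Col4a6 read 4.62 RPKM against 1.89 RPKM. The laminin chains Lamb1 at 23.9 RPKM and Lamc1 at 48.0 RPKM and nidogen 1, the product of Nid1, at 114 RPKM were also highest in cluster 1. Hspg2, which encodes perlecan, was not called, at 17.9 RPKM against 26.2 RPKM in cluster 2. The chains Col4a3 at 0.811 RPKM, Col4a4 at 1.94 RPKM, Lama3 at 0.392 RPKM and Lamb3 at 0.599 RPKM were not called either.

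Of 19 elastic fibre genes, 7 were higher than the median and none lower, and 6 with TMM scaling, with DESeq2 scaling and without clusters 2 and 5. Ltbp4, which binds latent TGF-beta, read 181 RPKM in cluster 1 and 18.3, 70.3, 146, 30.5, 3.93 and 112 RPKM in clusters 2 to 7. Eln, which encodes tropoelastin, read 45.4 RPKM in cluster 1 and 108 RPKM in cluster 4. Fibrillar collagens divided, with 2 of 11 higher and 4 lower (1 and 4 with TMM and with DESeq2 scaling, 1 and 3 without clusters 2 and 5). Col5a3, a chain of type V collagen, read 122 RPKM in cluster 1 and 12.6, 50.8, 49.3, 25.9, 2.12 and 58.3 RPKM in clusters 2 to 7. Col3a1 was higher than the median at 3364 RPKM, but not with TMM or DESeq2 scaling. The 4 lower ones were Col2a1, Col11a1, Col11a2 and Col24a1, and Col11a2 read 18.8 RPKM in cluster 1 against 1124 RPKM in cluster 6.

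Of 15 chemokine and scavenging receptor genes, 6 were higher than the median and none lower, beside 3.08% and 1.25% of all genes, with a median difference of 0.72, and 3 were higher without clusters 2 and 5. The 6 include Ackr4, which encodes a scavenging receptor of chemokines. Ccl11, which encodes eotaxin, had a difference from the median of 3.52. It read 92.3 RPKM in cluster 1 and 4.19, 5.99, 48.5, 8.51, 0.178 and 54.7 RPKM in clusters 2 to 7, a ratio of 1.69 (1.59 to 1.79) to cluster 7. The difference was 3.30 without cluster 2, 3 or 6, 3.74 without cluster 4, 5 or 7 and 2.33 without clusters 2 and 5. Clusters 1, 4 and 7 were high for Ccl11 and the other 4 low. Its neighbours Ccl2 and Ccl7, which attract monocytes, read 405 and 637 RPKM in cluster 1 and were higher still in cluster 3, at 1284 and 1109 RPKM. Ccl8 read 29.6 RPKM in cluster 1 and 25.1 RPKM in cluster 4.

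The transporter gene Abca8a lies at chr11:110025634-110095978 on the minus strand, in a group of related ABC transporter genes. Abca8a read 37.7 RPKM in cluster 1 and 1.94, 2.15, 18.3, 6.18, 0.608 and 23.2 RPKM in clusters 2 to 7. The ratio to cluster 7 was 1.62 (1.56 to 1.69), so it was a difference of degree from clusters 4 and 7. The difference from the median was 3.03, with 2.43 without cluster 2, 3 or 6, 3.62 without cluster 4, 5 or 7 and 2.31 without clusters 2 and 5. Lrrn2, a membrane protein with leucine-rich repeats, was likewise higher in clusters 1, 4 and 7, at 9.13, 4.21 and 4.31 RPKM beside 1.297 RPKM or less in the other 4. Of the 5 genes of the group, 4 were higher than the median (3 with TMM scaling, with DESeq2 scaling and without clusters 2 and 5). Cluster 1 was the highest library for 4. Each count includes Abca8a, which is itself a marker of cluster 1, so its own call adds nothing. Abca8b read 10.5 RPKM in cluster 1, Abca9 8.86 RPKM against 9.34 RPKM in cluster 7, Abca6 3.24 RPKM and Abca5 1.21 RPKM. Abca8a and Abca8b are similar copies, and how shared reads were assigned is not given in the sources used here, so the split between them is uncertain.

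Of 12 genes of retinoid and aldehyde metabolism, 5 were higher than the median and none lower, and 4 higher with DESeq2 scaling. Crabp1 of the same list, which encodes a retinoic acid binding protein, was left out with 26 counts and was lower than the median by more than 2-fold, at 1.37 RPKM. Without clusters 2 and 5, 4 were higher and 1 was lower. Adh1, which oxidises retinol, read 23.4 RPKM in cluster 1 and 2.50, 0.957, 19.3, 7.87, 0.430 and 11.6 RPKM in clusters 2 to 7. Aldh1a2, which makes retinoic acid, read 6.70 RPKM in cluster 1 and 6.48 RPKM in cluster 4. Adh1 was highest in cluster 1 and followed by cluster 4, while Aldh1a2 was below cluster 4 with TMM scaling. Of 9 ectonucleotidase and purine receptor genes, 2 were higher and 1 lower, and 1 was higher with TMM scaling, with DESeq2 scaling and without clusters 2 and 5. Entpd3 of the same list was left out with 44 counts and was lower by more than 2-fold as well, at 0.493 RPKM. Entpd2, a relative of Entpd1 that converts ATP to ADP, read 89.2 RPKM in cluster 1 and 8.25, 10.3, 111, 21.3, 1.67 and 71.2 RPKM in clusters 2 to 7. Nt5e, which encodes CD73 and makes adenosine from AMP, was the lower one, at 8.99 RPKM against 66.7 RPKM in cluster 6. Inmt, a methyltransferase of indolethylamines, was high in clusters 1, 4 and 7, at 50.1, 83.4 and 52.8 RPKM.

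Of 18 mesenchymal transcription factors, 4 were higher than the median (3 with TMM scaling, with DESeq2 scaling and without clusters 2 and 5), 1 was lower and cluster 1 was the highest library for 9 (7 with TMM scaling), beside 19.8% of all genes (11.7% with TMM scaling). Meox2, the paralog of Meox1, read 32.0 RPKM in cluster 1 and 16.4 RPKM in cluster 7. Tcf21, known from adventitial and epicardial mesenchyme, read 1.76 RPKM in cluster 1 and 1.70 RPKM in cluster 4. Dlx5, a homeobox factor of bone formation, was the lower one and was below every other cluster. It read 1.30 RPKM in cluster 1 on 70 counts and 8.31, 6.31, 6.95, 11.0, 8.51 and 7.55 RPKM in clusters 2 to 7. All 6 other clusters were 4.84 (3.75 to 6.34) times cluster 1 or more.

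Genes of bone-forming cells were low in cluster 1. Of 15 such genes, 12 had 50 or more counts, of which 11 were lower than the median and none higher, beside 1.25% of all genes, with a median difference of -2.18. The 11 were also counted with TMM and DESeq2 scaling and without clusters 2 and 5. Cluster 1 was the lowest of the 7 for 9 of the 12 (10 with TMM scaling), beside 3.58% of all genes (6.59% with TMM scaling). Over genes with 50 or more counts in any of the 7 libraries, these shares were 5.02% and 8.16%. Spp1 encodes osteopontin and lies at chr5:104435118-104441050 on the plus strand. It read 198 RPKM in cluster 1 and 1277, 1273, 1327, 1307, 2719 and 1302 RPKM in clusters 2 to 7. Clusters 2, 3, 4, 5 and 7 lay between 1273 and 1327 RPKM, cluster 6 was higher, and cluster 1 was below all of them. The lowest of the 6 was 6.44 (6.29 to 6.59) times cluster 1. Alpl, which encodes tissue-nonspecific alkaline phosphatase, read 27.0 RPKM in cluster 1 and 138, 86.6, 81.4, 76.4, 410 and 99.7 RPKM in clusters 2 to 7. Runx2, a regulator of osteoblast formation, read 2.09 RPKM against 4.44 to 12.3 RPKM. Sp7, which acts after Runx2, read 2.32 RPKM against 3.42 to 39.2 RPKM.

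Bglap encodes osteocalcin and lies at chr3:88383501-88384464 on the minus strand. Its difference from the median was -4.34, at 259 RPKM in cluster 1 and 3543, 14245, 192, 7821, 11190 and 276 RPKM in clusters 2 to 7. Clusters 1, 4 and 7 were low together, and cluster 1 was above cluster 4. The median of the others thus fell between high and low libraries, and the difference was -3.77 without cluster 3, 5 or 6, -4.91 without cluster 2, 4 or 7 and -2.76 without clusters 2 and 5. Bglap2 had the same order of high and low clusters, at 204 RPKM in cluster 1, and as a similar copy its reads may not be separable from those of Bglap. Dmp1, a matrix protein of osteocytes, read 3.58 RPKM in cluster 1 and 39.97, 206, 10.1, 58.6, 421 and 10.7 RPKM in clusters 2 to 7, so it was below clusters 4 and 7 also. Other genes far below the median had a similar order. Ifitm5, a membrane protein of osteoblasts, read 3.03 RPKM in cluster 1 and 45.4, 157, 4.38, 77.4, 170.1 and 5.5999 RPKM in clusters 2 to 7, and Car3, which encodes carbonic anhydrase 3, read 6.61 RPKM in cluster 1 and 276 RPKM in cluster 6. The transporter genes Slc36a2 and Slc13a5 read 0.919 and 0.469 RPKM in cluster 1, on 71 and 55 counts, and 43.8 and 20.7 RPKM in cluster 6. Sparc, which encodes osteonectin and was among the 10 most abundant genes of cluster 1, read 4633 RPKM there and 4653 to 12054 RPKM in the others. Col1a1 was the member of the group that was not called, at 4056 RPKM and rank 4 of 7.

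**Figure D4:**
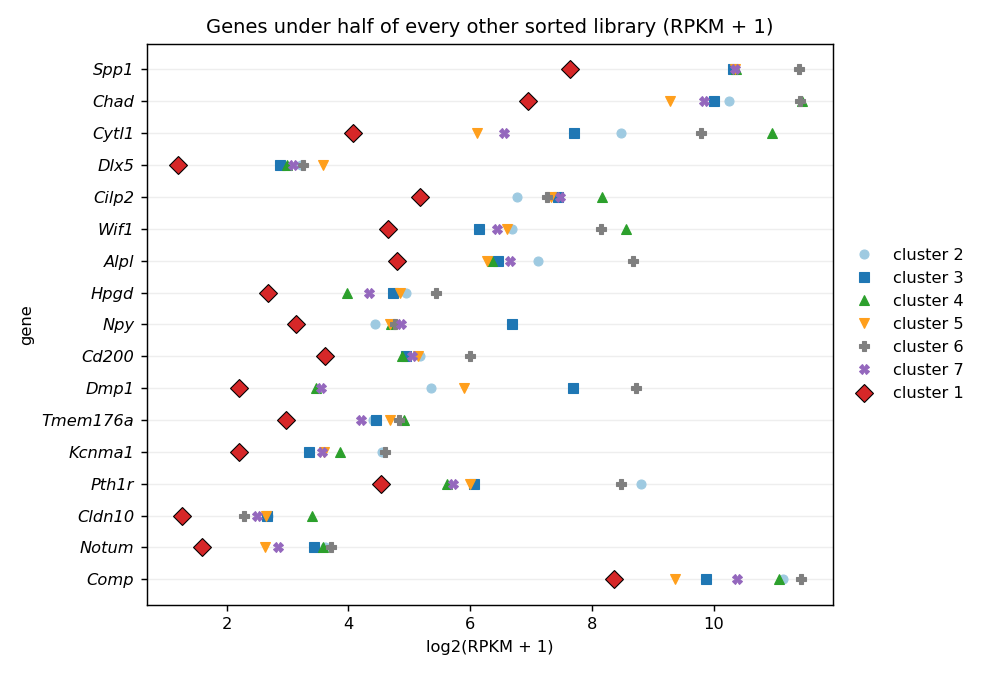
Levels as log2(RPKM + 1) on the horizontal axis are shown for the 17 genes that were more than 2-fold below every other sorted cluster, 1 point for each library. Cluster 1 is the leftmost point for every gene, with Spp1 at 198 RPKM against 1273 RPKM or more and Chad at 123 RPKM against 626 RPKM or more.

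Cartilage genes were low as well, with 7 of 11 lower than the median, beside 1.25% of all genes (8 with TMM and with DESeq2 scaling, 7 without clusters 2 and 5), none higher and a median difference of -1.56. Chad, which encodes chondroadherin, read 123 RPKM in cluster 1 and 1224, 1030.0, 2789.7, 626, 2726 and 916 RPKM in clusters 2 to 7. The lowest of these, cluster 5, was 5.10 (4.93 to 5.29) times cluster 1. Cytl1, a secreted protein of cartilage, read 15.8 RPKM in cluster 1 and 358, 209, 1998, 68.4, 884 and 93.2 RPKM in clusters 2 to 7. Clec3a, a lectin of cartilage, read 32.6 RPKM in cluster 1 and 61.5 to 862 RPKM elsewhere, and Ucma, a secreted protein of cartilage, 4.19 RPKM against 4.92 to 429 RPKM. Meltf, which encodes melanotransferrin, read 1.76 RPKM in cluster 1 and 3.45 to 113 RPKM elsewhere. Comp, which encodes cartilage oligomeric matrix protein, read 327 RPKM against 657 to 2773 RPKM. Of the 11, cluster 1 was the lowest of the 7 for 4, also with TMM scaling, beside 3.58% of all genes (6.59% with TMM scaling). For Col2a1, which encodes type II collagen, cluster 1 was not the lowest. It read 195 RPKM there, beside 136 RPKM in cluster 3 and 185 RPKM in cluster 7. Clusters 2 and 6 read 9608 and 10690.0 RPKM. Cluster 3 was below cluster 1 for Col9a1, Col10a1, Matn3 and Cnmd as well. Sox9, the main regulator of cartilage, was not called, at 55.8 RPKM and rank 4 of 7.

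Wnt and BMP antagonists divided. Over 15 of them with 50 or more counts, 4 were higher (3 with TMM scaling, with DESeq2 scaling and without clusters 2 and 5) and 2 lower, with a median difference of 0.49, the higher ones being Fstl1, Fst, Sfrp1 and Bmper and the lower ones Wif1 and Frzb. The 2 further genes of the list, Sfrp5 and Dkk1, were under the count minimum and both lower than the median by more than 2-fold. Wif1, which binds Wnt proteins, read 24.0 RPKM in cluster 1 and 102, 70.2, 377, 96.6, 282 and 85.9 RPKM in clusters 2 to 7. Frzb read 1.51 RPKM in cluster 1 and 2.73 to 31.3 RPKM elsewhere. Dkk1, a secreted inhibitor of Wnt signalling, had 1 count in cluster 1. Sfrp5, a secreted Frizzled-related protein, was listed at 0 counts in cluster 1 and read 8.34, 1.14, 16.2, 3.08, 8.31 and 1.56 RPKM in clusters 2 to 7. Set against a floor of 3 counts in cluster 1, Sfrp5 was at least 17.2-fold lower there than in the lowest of the others. It was 1 of 1703 genes under 50 counts in cluster 1 with 50 or more in another cluster, of which 68 were lower than the median and 1, Sfrp5, lower than the lowest. The other genes more than 2-fold below every cluster, among those with 50 or more counts, were Cilp2, Hpgd, Npy, Cd200, Tmem176a, Kcnma1, Pth1r, Cldn10 and Notum, and Notum was under 2-fold with TMM scaling. Pth1r, the receptor of parathyroid hormone, read 22.3 RPKM in cluster 1 and 48.0 to 448 RPKM elsewhere.

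**Figure D5:**
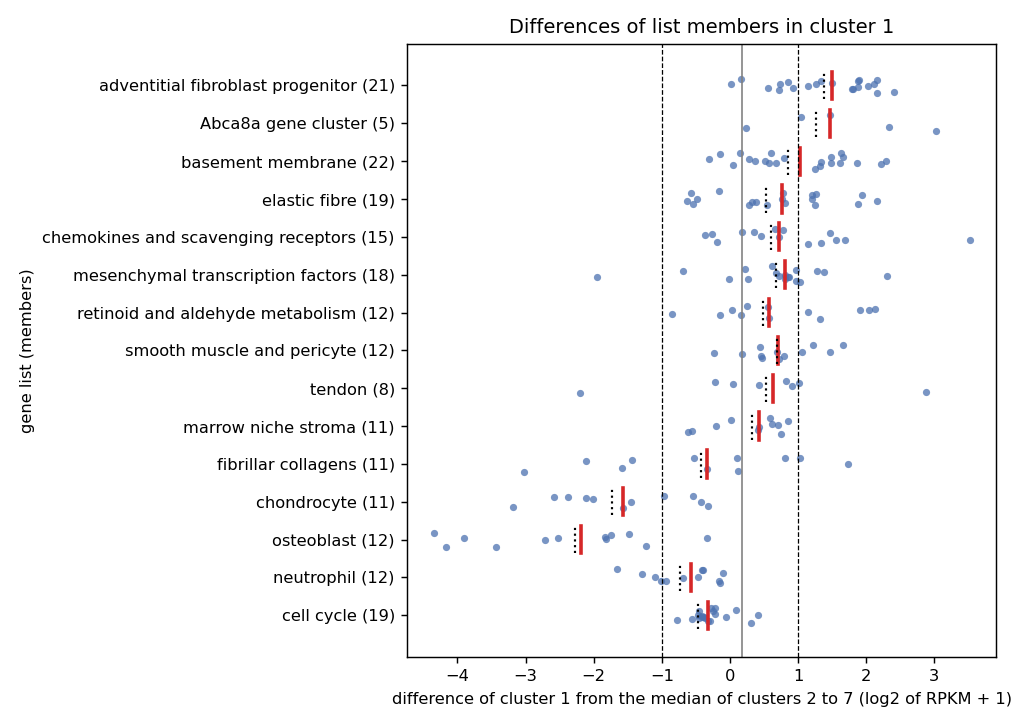
For each gene list, points give the difference of each member from the median of the other 6 clusters in log2(RPKM + 1), with the list's median as a red bar, its median with TMM scaling as a dotted bar, 2-fold as dashed lines and the median over all genes as a grey line. Adventitial fibroblast genes have a median of 1.49, basement membrane genes 1.02, cartilage genes -1.56 and bone-forming genes -2.18, beside 0.18 over all 13072 genes.

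Marrow niche genes showed no call in either direction among 11, with a median difference of 0.42. Cxcl12, the chemokine that retains blood stem cells in marrow, read 34.1 RPKM in cluster 1 and 13.1, 11.9, 141, 64.4, 5.12 and 48.6 RPKM in clusters 2 to 7. Lepr, the leptin receptor of marrow stromal cells, read 3.57 RPKM in cluster 1. It read 2.88, 4.63, 11.0, 7.11, 3.32 and 12.4 RPKM in clusters 2 to 7. Foxc1, a factor of the marrow niche, was the lowest of the 7 in cluster 1, at 14.7 RPKM against 21.1 to 31.1 RPKM. Of 12 smooth muscle and pericyte genes, 4 were higher and none lower (3 with TMM and with DESeq2 scaling, 5 without clusters 2 and 5). Myh11, the smooth muscle myosin, read 5.87 RPKM in cluster 1 and 2.25 RPKM or less elsewhere, and Acta2 read 62.9 RPKM in cluster 1 and 84.9 RPKM in cluster 7.

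Genes of blood cells were present in cluster 1 at a high level although CD45 and Ter119 were gated out. Of 12 neutrophil genes, 4 were lower than the median (5 with TMM scaling, with DESeq2 scaling and without clusters 2 and 5) and none higher, and their summed level was 15581 RPKM in cluster 1 and between 11579 and 42244 RPKM in the others. S100a9 was the most abundant of them at 6843 RPKM and was the second most abundant gene of cluster 1 after Gsn, and its partner S100a8 read 4395 RPKM. Fth1, the heavy chain of ferritin, was also among the 10 most abundant, at 3153 RPKM and rank 4 of 7. Of 7 erythroid genes with 50 or more counts 1 was higher, Hba-a2 (3 without clusters 2 and 5). With Epor, which had 27 counts, these 8 genes summed to 8382 RPKM in cluster 1, 66371 RPKM in cluster 5 and 858 RPKM in cluster 6. The sum holds no beta-globin gene, and Hbb-b1 read 4683 RPKM in cluster 1 and 28419 RPKM in cluster 5. Hba-a1, at 5716 RPKM, and Hbb-b1 were among the 10 most abundant genes of cluster 1. The 8 macrophage, 11 B cell, 3 T and NK cell and 4 mast cell genes with 50 or more counts had no call in either direction, except 1 macrophage gene that was lower with TMM and with DESeq2 scaling and 1 mast cell gene that was higher without clusters 2 and 5. Of 13 endothelial genes 1 was higher, Tek, at 5.42 RPKM in cluster 1 and 2.92 RPKM or less elsewhere, while Cdh5 read 0.882 RPKM. Of 4 Schwann cell genes, Scn7a was higher at 4.12 RPKM and S100b lower at 9.39 RPKM, and none was lower without clusters 2 and 5. Of 5 skeletal muscle genes 4 were lower and none higher, and none was called without clusters 2 and 5. Among the 4 was Acta1, the skeletal muscle actin, at 3.92 RPKM in cluster 1 and 1.01 to 77.7 RPKM elsewhere. The part of these other cell types in the differences of cluster 1 was not tested.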

How the data were processed

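RNA-seq of 7 sorted stromal clusters and 1 library of input cells was used, with 1 library per group taken from the labels. Per the labels and the study's methods, the authors aligned reads with TopHat2 in Partek Flow (Partek 2.2 in the submitters' processing notes) and deposited whole-number counts per Ensembl gene with coordinates and exon length. The counting tool, its treatment of shared reads and its use of strand are not given in the sources used here. The study's methods name mm9, but 96.25% of 23315 symbols started within 10 kb of their RefSeq GRCm38 start and 6.00% of IDs within 10 kb of their NCBIM37 start, so coordinates are given as GRCm38. Labels and methods also differ on strain name, RNA input and age. A symbol was matched for 38715 of the 49315 genes, by name table, RefSeq synonym or position.

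From these counts RPKM was calculated over the total that remained after 3 loci were dropped (Python 3.11.15, pandas 2.3.3, NumPy 2.4.6, SciPy 1.17.1, Matplotlib 3.10.9). Cluster 1 was compared with the median, the highest and the lowest of the other 6 in log2(RPKM + 1), for genes with 50 or more counts in cluster 1, with calls past 2-fold. No test was possible with 1 library per group, and no p-value is given. Total counts ranged from 12833648 to 33238133 in the sorted libraries, with a median of 27102715. Alternatives were TMM factors (edgeR 4.0.16) and DESeq2 1.42.0 size factors in R 4.3.3, a pseudocount of 0.1, other count minimums (10, 200, none, or 50 in any sorted library), 4-fold, the 3 loci kept, mitochondrial and haemoglobin genes dropped, and each other cluster left out, with clusters 2 and 5 left out together added after the data were seen. The calculation was tested on simulated data.

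Named genes were the markers of cluster 1, the 15 furthest above the highest and 10 furthest above the median, the 15 furthest below the median and 10 furthest below the lowest, the 10 most abundant, and members of gene lists that were furthest from 0 or most abundant. Predicted genes and immune receptor segments were counted, not named. Some further list members are not reported here. Members and lists were chosen with earlier results of these data known. Promoter sequences are from RefSeq GRCm38.p6, and 9860 of the 13072 genes had one.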

Additional observations from a re-analysis of the deposited data

How the results depend on the processing

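Among the cluster 1 markers, the genes furthest from the others and the most abundant genes, few differences past 2-fold changed sign under the alternatives run. Those that did were of Hba-a1 and Hbb-b1. Genes named only as list members are not covered by this. Of those, Cd55, Dpp4, Wnt2 and Ccl2, among others, were more than 2-fold below cluster 3 and above every other cluster. Their difference from the highest thus turns positive without cluster 3. Hba-a2 was likewise more than 2-fold below cluster 5 and above every other cluster, so its difference turns positive without cluster 5. Hba-a1 was below the highest of the other 6 by -3.03 and was above it by 0.048 without cluster 5. Without clusters 2 and 5, which were left out together after the data were seen, Hba-a1 was above by 0.88 and Hbb-b1 by 0.72. Of the counts of calls under alternatives, 50 were within 1.5 times the value reported and 18 were not. The 403 genes higher than the median became 862 with a pseudocount of 0.1, 615 with no count minimum, 37 at 4-fold and 265 without cluster 6. The 164 lower than the median became 251, 250 and 34 under the first 3 of these, and 98 at 200 or more counts. The 27 above the highest became 66 with a pseudocount of 0.1, 55 with no count minimum, 2 at 4-fold, 16 with TMM scaling, 61 without cluster 3, 46 without cluster 4 and 41 without clusters 2 and 5. The 17 below the lowest became 28 with a pseudocount of 0.1, 3 at 4-fold and 9 with the 3 loci kept. Higher genes made up 71.1% of calls against the median and between 52.1% (4-fold) and 80.9% (3 loci kept) under the alternatives. No paired analysis was possible because each cluster had 1 library and no replicate numbers. One library per cluster limits every value here: differences between sorts of the same gate were not measured, and genes near 50 counts carry wide counting intervals.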

Other observations

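Genes known from nerve cells appeared among the genes higher in cluster 1 than the median, and 14 of them were picked for that reason after their values were seen, so their number supports nothing. Scg3, which encodes secretogranin III, read 22.7 RPKM in cluster 1 and 0.450, 20.6, 6.18, 2.58, 0.0351 and 3.79 RPKM in clusters 2 to 7. Stmn4, a stathmin that binds tubulin, read 8.70 RPKM in cluster 1 and 1.31, 8.20, 1.73, 1.31, 0.0836 and 2.33 RPKM. For both genes clusters 1 and 3 were high together and cluster 6 was lowest. Gap43, a growth cone protein, read 4.01 RPKM in cluster 1 and 2.18 RPKM or less elsewhere, and Ret, a receptor of the GDNF family, 4.34 RPKM against 2.56 RPKM or less. Uchl1 read 11.4 RPKM in cluster 1 and 17.1 RPKM in cluster 3, and Ntrk2, a neurotrophin receptor, 8.75 RPKM in cluster 1 and 9.97 RPKM in cluster 4. Of 16 further nerve cell genes, 7 had 50 or more counts in cluster 1 and none was called. The synaptic gene Snap25 and the RNA-binding gene Elavl4 had 1 count each in cluster 1, and Prph, a neuronal filament, read 3.86 RPKM.

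Several other gene lists had few calls in cluster 1. Of 9 genes of the Ly6 family, Ly6c1 at 215 RPKM and Ly6a were higher, and both were exceeded by cluster 3. Without clusters 2 and 5, 1 of the 9 was higher, and 1 was lower with TMM and 2 with DESeq2 scaling. Since the Ly6 genes are similar copies, their split is uncertain. Of 15 complement genes, 1 was lower and 3 were higher, namely Cd55, C1s1 and C2. Cfd, a further complement gene that adipocytes express, was left out with 19 counts and was lower than the median by more than 2-fold, at 0.867 RPKM in cluster 1. With TMM scaling 3 were higher and 2 lower, with DESeq2 scaling 2 and 2, and without clusters 2 and 5 it was 1 and 1. Of 7 PDGF genes 1 was higher, Pdgfrb at 46.2 RPKM, though not with TMM or DESeq2 scaling. Of 7 hedgehog pathway genes 1 was lower, Hhip at 2.42 RPKM. Of 6 adipocyte genes 1 was higher, Lpl at 14.98 RPKM, and of 4 megakaryocyte genes 2 were higher, Ppbp and Pf4 (1 with TMM and with DESeq2 scaling). Of 17 immediate early genes 1 was higher, Nr4a1 at 556 RPKM, and none with TMM or DESeq2 scaling. The 12 interferon-stimulated and 19 cell cycle genes had no call, with median differences of 0.30 and -0.32, except 1 interferon-stimulated gene that was higher without clusters 2 and 5. The 11 genes of the sort markers had 3 calls, all higher, namely Ly6a, Ly6c1 and Icam1, and Icam1 at 75.4 RPKM was not called with TMM scaling. With DESeq2 scaling 2 were higher and 1 lower, and without clusters 2 and 5 there was 1 call, higher.

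Some genes that were near absent from cluster 1 were well measured elsewhere. R3hdml read 0.385 RPKM in cluster 1 and 52.4, 0.994, 21.2, 6.56, 64.2 and 2.84 RPKM in clusters 2 to 7. Entpd3, a relative of Entpd1, read 0.493 RPKM in cluster 1 and 4.58, 28.5, 0.661, 9.68, 39.8 and 1.30 RPKM. Both were highest in cluster 6 and lowest in cluster 1.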
